A study of Macaca mulatta with 13 samples.

Results

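KLRB1 T cells are colon T cells in which RNA of KLRB1 was found and RNA of CD8A was not. They were chosen from unique molecular identifier (UMI) counts, each UMI marking 1 captured RNA molecule. A cell had to hold at least 3 UMIs of CD3D, CD3E and CD3G together, more of them than of the B-cell genes MS4A1 and CD79A, under 1% of its UMIs in JCHAIN, 0 UMIs of CD8A and at least 1 of KLRB1. Cells with 2 or more UMIs of TNFRSF4, 2 or more of CCL20 and IL21 together, or 3 or more of GZMB were left out. The rule found 1064 cells among 20567 cells that the authors kept. They were set against 3775 KLRB1-zero T cells of the same libraries, which met the same rule apart from holding 0 UMIs of KLRB1.

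KLRB1 encodes CD161, a lectin-like surface receptor whose ligand is LLT1, the product of CLEC2D. In the gut and elsewhere CD161 is known from natural killer (NK) cells, from helper T cells of type 17, which make interleukin-17 and carry the receptor CCR6, from mucosal-associated invariant T cells, and from other memory T cells. ICOS is a costimulatory receptor of activated and helper T cells.

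Colon leukocytes of rhesus macaques were studied after transplantation of donor blood-forming cells, as a model of acute graft-versus-host disease, or GVHD, an attack of donor T cells on the recipient. By the labels, 13 libraries were made: 4 of host cells, 2 of donor cells, 3 of host and donor cells of GVHD together and 4 of untransplanted healthy controls, with no age, drug or day given. All were viable CD45-positive leukocytes that the CD45 stain marked IVas had not reached, and the MHC class I molecule MAMU-A001 served to part host from donor cells in some. The labels count 4 colon samples of the transplanted cohort and 4 of controls, so libraries of transplanted animals share animals, and the 10x kits of versions 2 and 3 are not tied to libraries. Each cell barcode ends in a number from 1 to 13 that is tied to no label. The numbers are used here as library names, and values over libraries carry no test and no p-value.

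Libraries 4 and 6 shared 5323 barcodes, where no other pair shared more than 55, and all 39 kept cells of library 4 were also kept in library 6. Library 4 was therefore dropped, which left 12 libraries of 3205412 to 19655788 UMIs. Library 7 held 1 KLRB1 T cell, library 10 held 2, library 6 held 12 and library 5 held 13. The other 8 libraries held 50 to 293 each, 1036 in all, and carry the comparisons of levels. Median depth there was 2130 to 3476 UMIs per KLRB1 T cell and 2171.5 to 3421 per KLRB1-zero T cell.

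Many KLRB1 T cells stood near the edge of the rule. KLRB1 gave exactly 1 UMI in 431 of them (40.5%), 2 UMIs in 232 and 6 or more in 120. Of the 1850 T cells with KLRB1 and no CD8A UMI, 786 (42.5%) were left out by the cuts, 634 of them by GZMB. Just outside stood 62 cells with exactly 3 GZMB UMIs, 46 with exactly 2 of CCL20 and IL21 and 16 with exactly 2 of TNFRSF4. Just inside stood 74 cells with 2 GZMB UMIs, 95 with 1 of CCL20 and IL21 and 60 with 1 of TNFRSF4. An absent CD8A UMI does not show that CD8 was absent, since 1901 of 4053 T cells with CD8A (46.9%) held just 1 such UMI. CD8B, the partner chain of CD8A that the rule did not use, was found in 18 KLRB1 T cells (1.69%) and in 8.78% of the T cells with CD8A.

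KLRB1 T cells made up 14.2% of the 7468 T cells with no CD8A UMI (95% exact binomial interval 13.5 to 15.1, which covers counting error only). Over the 10 libraries with at least 50 such T cells the share had a lowest value of 3.12% (library 10), a median of 12.2% and a highest value of 23.2% (library 1). Libraries 1, 11 and 3 stood highest, at 23.2%, 21.7% and 21.0%, and libraries 10, 5 and 2 lowest, at 3.12%, 3.41% and 4.42%. Library 1 (20.8 to 25.6) did not differ from library 11 (19.5 to 24.0) or library 3 (17.3 to 25.01) beyond counting error at full depth. Thinned to 1500 UMIs, library 1 stood at 21.0% (18.6 to 23.5), apart from library 11 at 15.8% (13.7 to 18.1). With every cell thinned to 1500 UMIs and the rule applied again, the range was 2.42 to 21.0%, with a median of 10.95%. Without the cuts the share was 11.04 to 48.5%, with a median of 19.2%, with library 1 at 48.5% and library 11 at 28.1%.

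**Figure D1:**
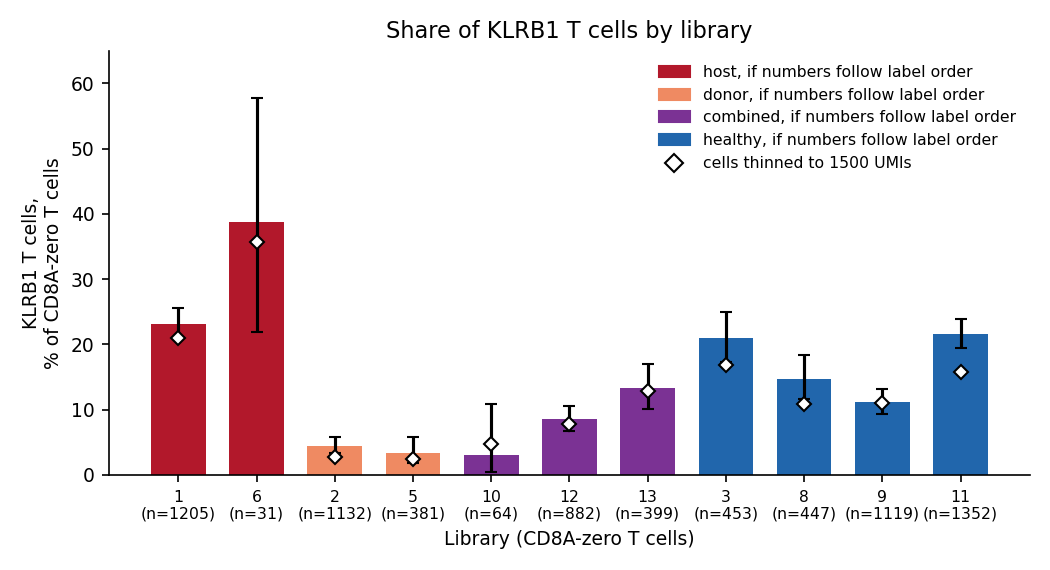
KLRB1 T cells as a percentage of T cells with no CD8A UMI (bars, with 95% exact binomial intervals for counting error) in 11 libraries, with the number of T cells with no CD8A UMI under each and the share after thinning to 1500 UMIs as diamonds. Colours hold only if barcode numbers follow the order of the labels. Libraries 2, 5 and 10 stand lowest, and the interval of library 6, with 31 cells, spans 21.9 to 57.8%.

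KLRB1 UMIs were also found in B cells, taken as cells with at least 3 UMIs of MS4A1 and CD79A and 0 of the CD3 genes. They stood in 12.5% of 1021 B cells of library 3 (median depth 3642 UMIs) and in 8.18% of 379 B cells of library 11 (3153 UMIs). The share was 1.35% in library 8, 0.887% in library 9 and 0 in the others, where 10 to 92 B cells per library in libraries 1, 2, 5, 10, 12 and 13 allow a share of up to 3.26% at best. Among 617 plasma cells 2 held KLRB1 (0.324%). KLRB1 T cells made up 21.0% and 21.7% of T cells with no CD8A UMI in libraries 3 and 11. The B-cell shares were counted without the cuts. Without them 28.3% and 28.1% of these T cells held KLRB1, above the B cells of the same libraries. How much free or carried-over RNA adds to the shares of these 2 libraries was not tested.

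The order of the barcode numbers could be the order of the labels, which nothing in the files states. The 4th and 6th labels in that order are the only pair of host labels with the same number in their names, and libraries 4 and 6 are the pair that shares its cells. If the orders match, the share was 23.2% and 38.7% in the host libraries 1 and 6 (the latter 12 of 31 cells), 4.42% and 3.41% in the donor libraries 2 and 5, 21.0%, 14.8%, 11.2% and 21.7% in the healthy libraries 3, 8, 9 and 11, and 3.12%, 8.50% and 13.3% in the combined GVHD libraries 10, 12 and 13. On that reading both donor libraries lie below all 4 healthy ones and the combined libraries overlap the healthy ones, but for library 5 the first order rests on the cuts. Without them library 5 had 18.9% against 16.3% in library 9. Of the T cells that passed the cuts 14.9% of library 5 and 14.4% of library 9 held KLRB1. Library 2 lay below all 4 healthy libraries both ways. It had 11.04% against 16.3 to 28.3% without the cuts, and 8.77% against 14.4 to 27.5% of the T cells that passed them. No test was made, since the grouping is inferred and libraries may share animals.

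The marker check went against one of the names given to these cells. KLRB1, by which they were chosen, stood at 630 to 1245 CPM (a gene's UMIs per 1000000 UMIs of the same cells) over the 8 libraries. ICOS had a lowest level of 42.2 CPM in library 13, a median of 195 and a highest of 314 in library 1, against 140, 204 and 343 in KLRB1-zero T cells. ICOS was thus not called higher in KLRB1 T cells. Its log2 ratio had a median of -0.21 (range -1.84 to 0.28), was above 0 in 3 of 8 libraries, and had a median of 0.18 among cells with a CD4 UMI and of 0.11 in libraries 8 to 13 alone. The share of cells with an ICOS UMI, at 1500 UMIs per cell, had a median of 24.6% against 24.4%. CD4, the helper coreceptor, had a median log2 ratio of -0.01 and ranged from -3.21 to 0.50. TRAC, the constant chain of the alpha-beta T-cell receptor, stood at 413 to 1301 CPM against 368 to 1773. At 1500 UMIs per cell a TRAC UMI was found in a median of 49.7% of KLRB1 T cells against 60.8%. That share was higher in KLRB1 T cells in 0 of 8 libraries. Over all cells at full depth it was 82.4% against 80.8%, and the reason was not tested.

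Ratios here are log2 of (CPM + 10) in KLRB1 T cells over KLRB1-zero T cells of the same library, for 6161 genes of at least 10 CPM on average that the rule did not use. A gene is called higher or lower where the ratio has the same sign in all 8 libraries. This called 117 genes (1.9% of those measured), of which 62 were higher (1.01%) and 55 lower (0.893%), and the median gene had a ratio of -0.0023. The call is a description of these libraries, not a test. When every cell was thinned to 1500 UMIs, 20 of the 62 and 18 of the 55 were still called, and against KLRB1-zero T cells drawn to the same depths 24 and 14 were.

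HOPX had the highest median ratio of the genes called. It encodes a small homeodomain protein that does not bind DNA by itself and is known from memory and effector lymphocytes. Its level in KLRB1 T cells was lowest at 210 CPM (library 3), had a median of 322 and was highest at 515 (library 13), against 47.9, 154 and 380 in KLRB1-zero T cells. HOPX was higher in each of the 8 libraries, by a median log2 ratio of 1.20 (range 0.43 to 2.24), although the 2 ranges overlapped because libraries differed. At 1500 UMIs per cell a median of 34.1% of KLRB1 T cells held a HOPX UMI, against 12.6%. HOPX, CCR7 and MAGEH1 kept their call in the 26 other settings tried.

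**Figure D2:**
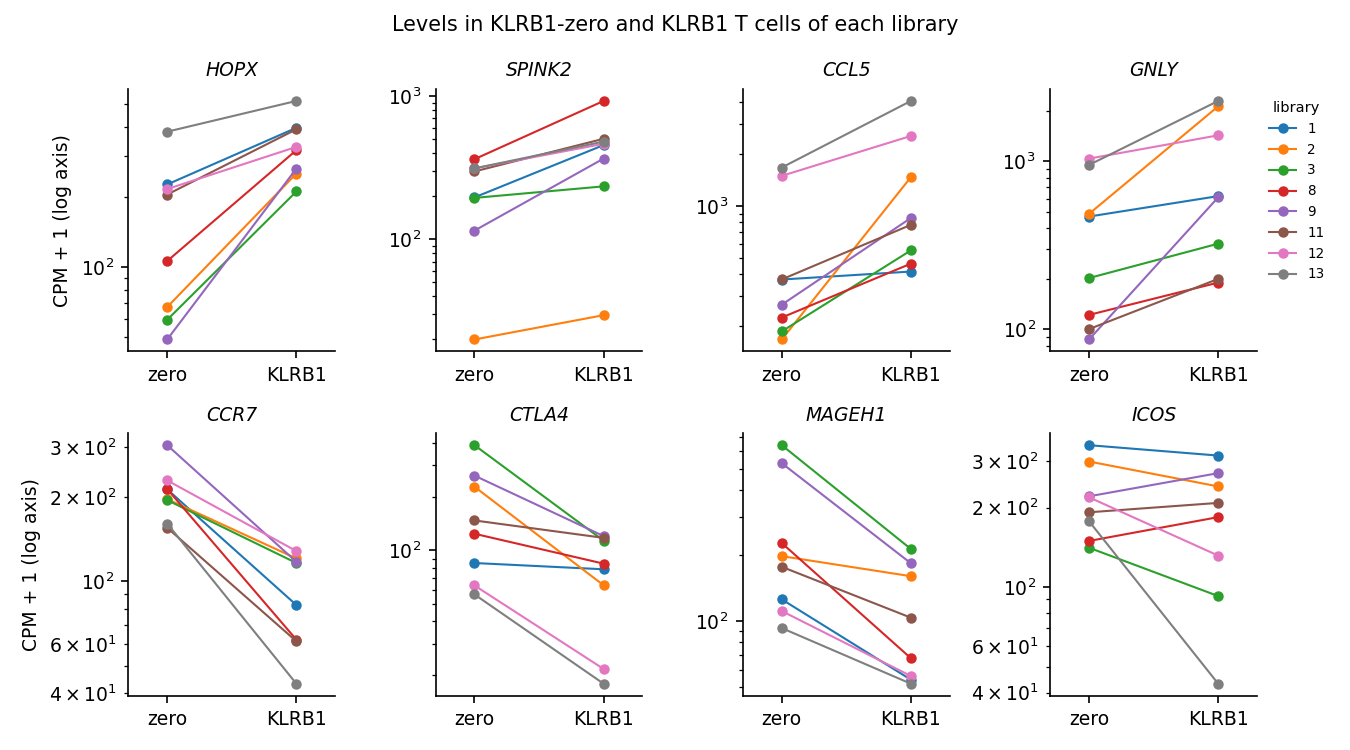
Levels of 8 genes in KLRB1-zero and KLRB1 T cells, in CPM + 1 on log axes that differ between panels and do not start at 0, with 1 line for each of the 8 libraries. All lines rise for HOPX, SPINK2, CCL5 and GNLY, all fall for CCR7, CTLA4 and MAGEH1, and 3 of 8 rise for ICOS.

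The cytotoxicity list, which holds chemokines such as CCL5 beside killing genes, had the highest median ratio of the 16 gene lists. Of 11 measured genes on the cytotoxicity list outside the rule, CCL5 and GNLY were called higher and 0 lower. Of all genes 1.01% were called higher. All 11 had a median ratio above 0, and the list's median was 0.91, against -0.0023 for all genes. CCL5, a chemokine stored by effector T cells, had a lowest level of 414 CPM, a median of 811 and a highest of 4055, against 167, 319 and 1665, with a median log2 ratio of 1.16 (range 0.15 to 3.06). Libraries 13 and 12 were highest in both kinds of cell. GNLY, the membrane-lysing granulysin, had 189, 615 and 2290 CPM against 85.9, 334 and 1037, with a median ratio of 0.79 (0.40 to 2.69). Libraries 9 and 2 had the largest GNLY ratios, 2.69 and 2.11, and GNLY lost its call when the KLRB1-zero T cells were taken without the cuts, as CCL5 did. Among cells with a CD4 UMI, which 3 libraries could supply, CCL5 had a median ratio of 0.49 and was not called, and GNLY had 0.36 and was called.

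The other genes of the cytotoxicity list were not called, since 1 or 2 libraries went the other way. Granzyme K (GZMK, singled out after its values were seen, as were XCL1, IFNG, CRTAM, NKG7, CST7 and ITGA1) had the highest median ratio of the list, 2.10, with a range from -0.71 to 3.24. GZMK stood at 6.11 CPM in KLRB1 T cells of library 1 and at 42.2 in library 13, and at 97.6 to 461 in the other 6. NKG7, a protein of cytotoxic granules, and CST7, an inhibitor of granule proteases, had median ratios of 1.21 and 1.15 and were above 0 in 7 of 8 libraries. The GZMB cut of the rule leaves out the T cells richest in granzyme B from both kinds, so these values do not describe all T cells with KLRB1.

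Receptors shared with NK cells included 1 called gene. Of 7 measured besides KLRB1, CD160 was called higher and 0 lower, with a list median of 0.35. Of all genes 1.01% were called higher. CD160, a receptor of cytotoxic lymphocytes, stood at 10.2 to 110 CPM against 2.99 to 48.4, with a median ratio of 0.80 (0.21 to 1.51). The CD160 call was kept after thinning. It was lost at matched depth, with at least 2 KLRB1 UMIs and among cells with a CD4 UMI. KLRD1 encodes CD94, the partner of the NKG2 receptors. Its level was 44.8 to 576 CPM against 12.7 to 94.4, with a median ratio of 1.08 and 7 of 8 libraries above 0. Among cells with a CD4 UMI the median was 0 for KLRD1 and -0.033 for CD160. Library 2 had the highest KLRD1 ratio, 3.99, from 576 CPM against 26.9, and library 1 had 44.8 against 45.3. KLRK1 (NKG2D) and CD96 had median ratios of 0.35 and 0.58 with 7 of 8 libraries above 0, while CLEC2D, which encodes the CD161 ligand, SLAMF7 and TIGIT had medians of -0.04, 0.00 and -0.03.

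Type 17 genes had a list median of 0.02. Of the 12 measured, 0 were called higher, where 1.01% of all genes were, so that the count says nothing particular of this list. HIF1A, the oxygen-sensing factor, was called lower (median ratio -0.44, range -0.93 to -0.12). Its call was lost after thinning, among cells with a CD4 UMI and where KLRB1 T cells had to hold at least 2 KLRB1 UMIs. CCR6 stood at 14.8 to 80.4 CPM against 15.5 to 72.8, with a median ratio of 0.10 and 5 of 8 libraries above 0. RORA, a nuclear receptor of type 17 cells, had a median ratio of 0.33 and ran from -1.40 in library 13 to 1.24 in library 9. IL23R, the receptor chain for interleukin-23, AHR, the aryl hydrocarbon receptor, IL22, a cytokine acting on epithelium, and DPP4, which encodes CD26, had median ratios of 0.45, 0.56, 0.29 and 0.43, each with both signs among libraries. Among cells with a CD4 UMI the median for IL22 was 2.29 and that for DPP4 -0.043. MAF, BATF, CTSH, IL1R1 and STAT3 had medians of -0.32, -0.42, -0.84, -0.38 and -0.07.

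IL17A, the defining cytokine of type 17 cells, gave 0 UMIs in both kinds, which allows up to 2.96 CPM in KLRB1 T cells of library 11, the most deeply sampled, and up to 25.3 in library 13. Of innate-like genes just 2 were measured, with 0 called: IL18R1, a chain of the interleukin-18 receptor, at a median ratio of -0.02, and LST1 at -0.74. SLC4A10 and ZBTB16, which mark mucosal-associated invariant T cells, were under the level limit, and no symbol matched TRAV1-2 or the gamma-delta genes TRDC and TRGC1. TYROBP, an adaptor of NK receptors and the 1 measured gene of the gamma-delta and innate lymphoid list, had a median ratio of 0.60 with 7 of 8 libraries above 0.

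Homing to lymph nodes went the other way. CCR7, the receptor that leads T cells into lymph nodes, had a lowest level of 42.2 CPM, a median of 98.4 and a highest of 127 in KLRB1 T cells, against 154, 204 and 305. Every KLRB1 value of CCR7 lay under every KLRB1-zero value, and the median log2 ratio was -1.25 (range -1.70 to -0.66). CCR7 was the 1 gene called lower among 14 measured genes of the circulation and naive list, with 0 called higher. Of all genes 0.893% were called lower. In the list 11 of the 14 had a median below 0 (list median -0.24), against 3120 of all 6161 genes. LEF1, a factor of naive T cells, was below 0 in 7 of 8 libraries, with a median of -0.85. IL7R, the interleukin-7 receptor, stood on the other side at 0.37.

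Of 16 helper, follicular and costimulation genes, 3 were called lower and 0 higher, where 0.893% of all genes were called lower. The list median was -0.25, and 14 lay below 0, against 3120 of all 6161 genes. CTLA4, an inhibitory receptor of activated and regulatory T cells, had 16.9, 80.3 and 119 CPM (lowest, median, highest) against 55.7, 135 and 388, with a median ratio of -1.16 (-1.70 to -0.11). CTLA4 differed least in libraries 1 and 11. Its call was lost where KLRB1 T cells had to hold at least 2 KLRB1 UMIs, and among cells with a CD4 UMI (median ratio -0.47). CXCR5, the receptor for entry into B-cell follicles, and TOX2, a factor of follicular helper T cells, had median ratios of -0.69 and -0.61 at low levels, CXCR5 at 0 to 44.4 CPM and TOX2 at 0 to 24.96. Both lost their call against KLRB1-zero T cells without the cuts. TOX2 also lost it after thinning, at matched depth and where library 8 or library 9 was left out. CXCR5 also lost it where cells had to hold a TRAC UMI or a CD4 UMI. MAGEH1, a member of the MAGE family on no list, stood at 50.7 to 213 CPM against 92.0 to 639, with a median ratio of -0.99 (-1.63 to -0.29). The cut on TNFRSF4 applied to both kinds of cell.

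Residency genes leaned higher without most being called. RUNX3, a factor of cytotoxic and tissue-resident T cells, was the 1 called of 15 measured (0 lower), at 38.5 to 235 CPM against 26.9 to 169 and a median ratio of 0.33 (0.10 to 1.07). Its call was lost after thinning, among cells with a CD4 UMI and against KLRB1-zero T cells without the cuts. The list's median was 0.33, with 13 of 15 above 0, against 3025 of all 6161 genes. Of all genes 1.01% were called higher. XCL1, a chemokine that draws cross-presenting dendritic cells, and CRTAM, an adhesion receptor, had medians of 1.12 and 0.86 with 7 of 8 libraries above 0. ITGA1, the CD49a integrin chain, had 0.70, and ITGAE, the CD103 chain, and CD69, a retention receptor, had 0.09 and 0.10. Of 10 measured cytokine genes 0 were called. IFNG, the main type 1 cytokine, had the highest median, 1.57 (-0.10 to 2.35), from 39.9 to 340 CPM against 9.34 to 84.5, and library 13 was the 1 library below 0.

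Further genes called higher lay on other lists or on none. SPINK2, a serine protease inhibitor also seen in innate lymphoid cells, stood at 28.5 to 927 CPM against 18.95 to 362, with a median ratio of 0.68 (0.26 to 1.60). Its level was lowest in library 2 in both kinds. The call was lost after thinning, with a median ratio of 1.04. It was also lost with at least 2 KLRB1 UMIs and against KLRB1-zero T cells without the cuts. TNFAIP3, the NF-kappaB inhibitor A20, was the 1 immediate early gene called of 13 (504 to 1299 CPM against 234 to 718, median ratio 0.60). That call was lost against KLRB1-zero T cells at matched depth or without the cuts, and where cells had to hold a TRAC UMI. ISG15 was the 1 interferon-stimulated gene called of 7 (0.45, range 0.06 to 1.36), and the medians of those 2 lists were 0.00 and 0.09. PRSS55, SIGLEC5, SLA2, TP53I13, PTPN22, ARRB2, RRAD, TGDS and TNFRSF1B had medians of 0.75, 0.62, 0.58, 0.57, 0.54, 0.50, 0.50, 0.48 and 0.47. Among these PTPN22 is a phosphatase that restrains T-cell receptor signals, SLA2 an adaptor that does so too, and TNFRSF1B the second receptor for TNF. Genes called lower besides those above were IL6R, a chain of the interleukin-6 receptor and the 1 called of 12 in the receptor list (-0.85), P2RY8 (-0.85), a receptor that keeps B cells in follicles, SERPINA1 (-0.59), PPP1CC (-0.55) and SMPD2 (-0.52). The lists of type 1 and type 2 factors, proliferation, metabolism and the T-cell receptor complex had 0 genes called of 9, 7, 9 and 6 measured, with medians of 0.12, -0.36, -0.02 and -0.12. Over all genes 1.01% were called higher and 0.893% lower. Counts of 0 or 1 in lists this short therefore say little of the lists.

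**Figure D3:**
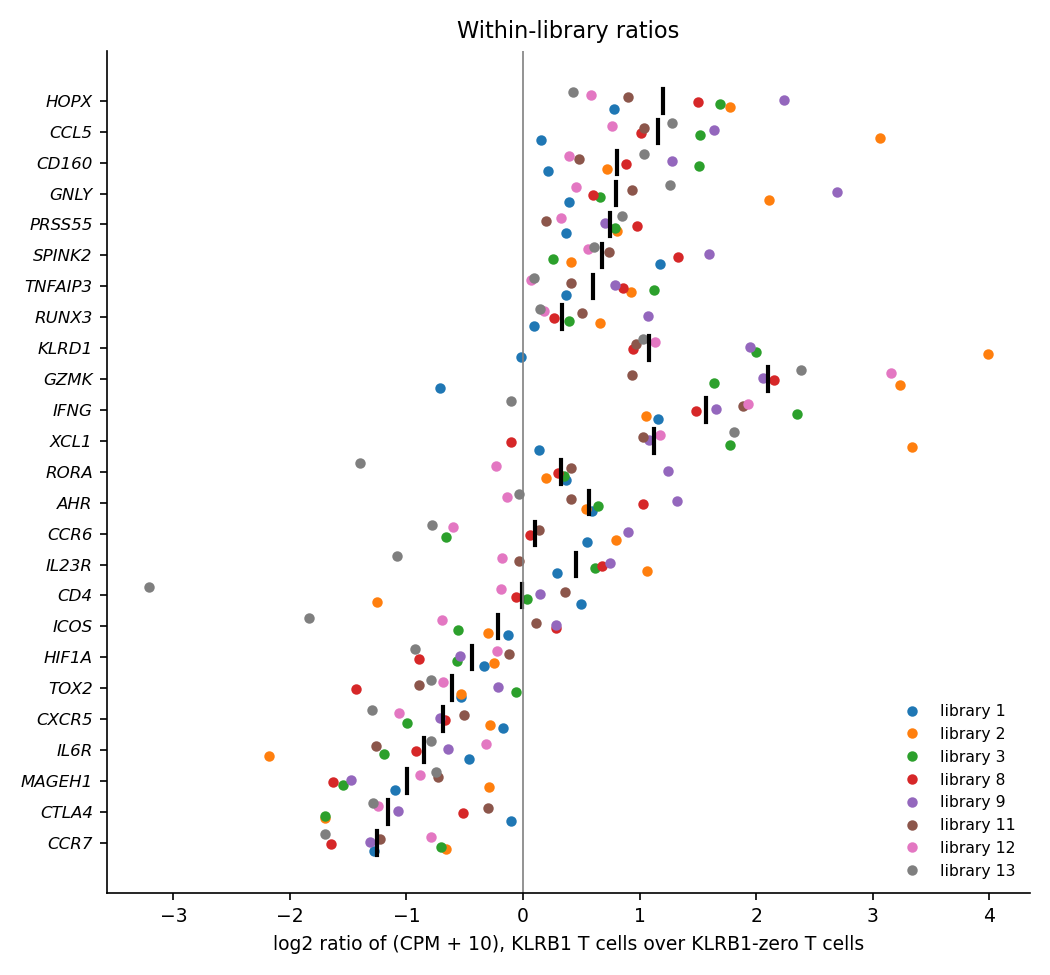
Log2 ratios of (CPM + 10), KLRB1 T cells over KLRB1-zero T cells, for genes named in the text in each of 8 libraries (points) with the median (black bar). HOPX to RUNX3 lie above 0 and HIF1A to CCR7 below 0 in all 8 libraries, while KLRD1 to ICOS have libraries on both sides.

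Levels also differed with the number of KLRB1 UMIs in a cell. Libraries 1, 9 and 11 held at least 20 cells with 0, 1, 2 and 3 or more KLRB1 UMIs. HOPX went from 47.9 to 109, 288 and 349 CPM in library 9, from 225 to 292, 475 and 460 in library 1 and from 204 to 351, 405 and 429 in library 11. IFNG went from 84.5 to 282, 286 and 469 CPM in library 11, and SPINK2 from 114 to 164, 356 and 496 in library 9. CCR7 was 305, 291, 41.1 and 39.4 CPM over the 4 steps in library 9, 212, 85.7, 47.5 and 91.1 in library 1, and 154, 66.5, 74.3 and 39.0 in library 11. The step from 0 to 1 KLRB1 UMI was thus small for CCR7 in library 9, with 38 cells at 1 UMI, and larger in libraries 1 and 11. Median depth in library 9 was 2623, 2482.5, 2752.5 and 2727 UMIs over these steps. In library 11 it was 2825 at 0 UMIs and 3263 to 3393 above, and the part of depth was not tested. S100A8, a myeloid gene, stood at 2226, 5287, 11.9 and 264 CPM over the steps in library 1, and its part in the values of library 1 was not tested.

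**Figure D4:**
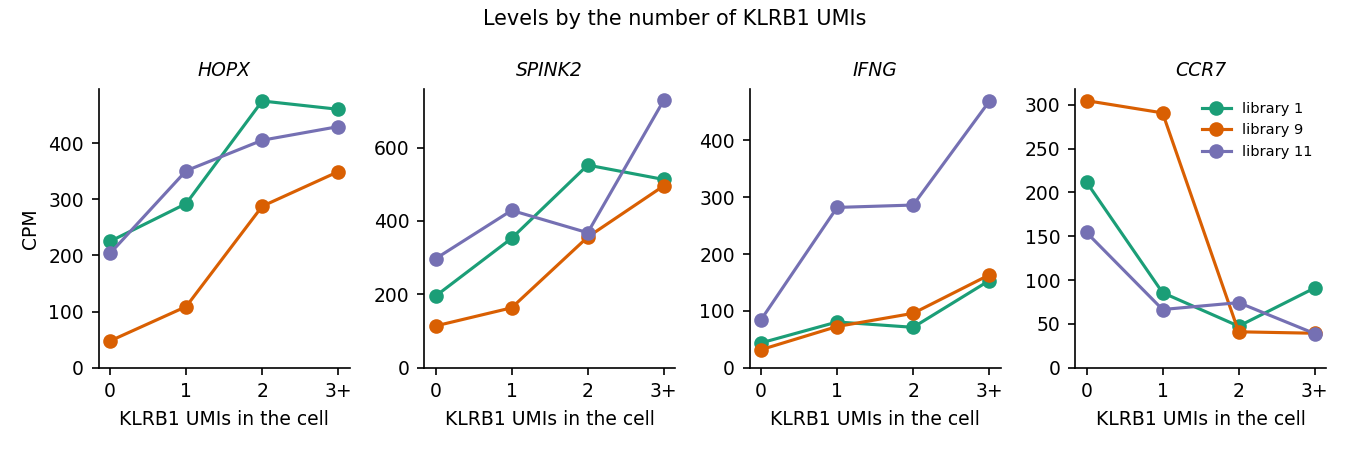
Levels in CPM of HOPX, SPINK2, IFNG and CCR7 in T cells with no CD8A UMI, by their KLRB1 UMIs, in libraries 1, 9 and 11. HOPX is higher and CCR7 lower at 2 and at 3 or more UMIs than at 0 in all 3 libraries.

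Killing, homing and type 17 genes were also counted by cell, with sets chosen after levels had been seen and every cell thinned to 1500 UMIs. A UMI of KLRD1, GNLY, CCL5, XCL1, CD160, GZMK or NKG7 was found in a median of 59.1% of KLRB1 T cells per library (39.2 to 92.5%) and in 27.2% of KLRB1-zero T cells (15.2 to 63.5%). The set holds CCL5, GNLY and CD160, already called higher, so its direction follows from the choice of genes and the sizes are given as a description. Chemokines and NK-type receptors are in it beside granule genes, so a UMI of this set does not mark a killing cell. Libraries 13 and 12 had the highest shares in both kinds. A UMI of CCR7, LEF1 or S1PR1 was found in a median of 11.96% (3.77 to 22.0%) against 24.7% (20.1 to 38.8%), a set that holds CCR7, already called lower. A UMI of CCR6, IL23R, IL17F, IL22 or IL26 was found in 10.98% (5.66 to 17.6%) against 8.70% (3.85 to 14.6%), with libraries on both sides. Over the 8 libraries 62 KLRB1 T cells (5.98%) held UMIs of both the killing and the type 17 set, and 337 (32.5%) held none of the 3 sets.

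**Figure D5:**
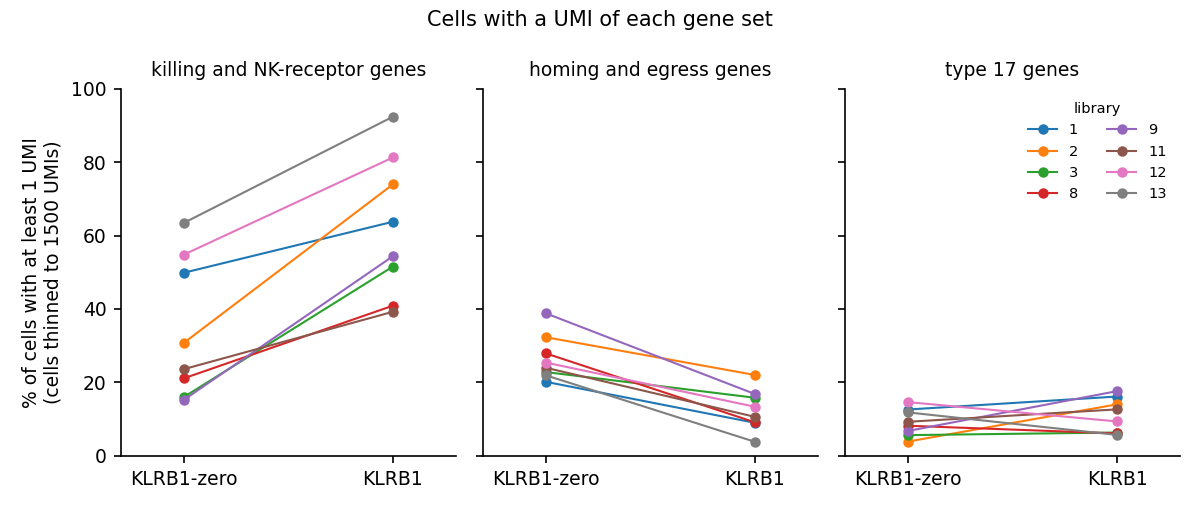
Percentage of cells with at least 1 UMI of each gene set after thinning to 1500 UMIs, in KLRB1-zero and KLRB1 T cells, with 1 line for each of the 8 libraries. The killing and NK-receptor set (7 genes) and the homing and egress set (3 genes) hold genes already called, so the direction of their lines follows from that choice, and the type 17 lines (5 genes) go both ways.

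If barcode numbers follow the order of the labels, levels in KLRB1 T cells can be set side by side. HOPX would be 395 and 758 CPM in the host libraries 1 and 6, 251 and 360 in the donor libraries 2 and 5, 210, 316, 263 and 389 in the healthy libraries 3, 8, 9 and 11, and 327 and 515 in the combined libraries 12 and 13. These HOPX ranges overlap. CCL5 would be 414 and 0 CPM in the host, 1465 and 960 in the donor, 550, 461, 849 and 774 in the healthy and 2540 and 4055 in the combined libraries, so that the donor and combined values lie above all healthy ones. KLRB1-zero T cells had CCL5 at 1490 and 1665 CPM in libraries 12 and 13 and at 186 to 373 in the 4 libraries read as healthy. In library 2, read as donor, they had 167 CPM, the lowest of the 8 libraries and below all 4 healthy values. CCR7 would be 81.4 and 56.1 CPM in the host, 120 and 140 in the donor, 115, 61.1, 117 and 60.3 in the healthy and 127 and 42.2 in the combined libraries, with overlap throughout. The values of libraries 5 and 6 rest on 13 and 12 cells.

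KLRB1 T cells were also set against T cells with both KLRB1 and CD8A, under the same cuts. In 7 libraries both kinds had at least 20 cells (388 cells with CD8A). There 81 genes were higher (1.3% of 6219) and 54 lower (0.868%). Of 11 measured cytotoxicity genes 0 were called higher and 3 lower, namely CCL5, NKG7 and GNLY at median log2 ratios of -0.95, -0.84 and -0.78, and the list's median was -0.75. Of 8 NK-type receptors 0 were called higher and 3 lower, namely CD160 at -0.97 and CD244 and SLAMF7 both at -0.98. SPINK2 was also called lower, at -0.36, and HOPX was not called (-0.32, range -1.03 to 0.05). CTLA4, TNFRSF18, a costimulatory receptor, and DUSP2, a phosphatase of MAP kinases, were called higher at 1.29, 1.19 and 1.19.

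The T cells that the cuts left out make further neighbours, and genes of the rule set these groups apart by construction. Against 659 T cells with 2 or more UMIs of CCL20 and IL21 and no CD8A (7 libraries), 164 genes were higher (2.6% of 6303) and 390 lower (6.19%). CCL5, NKG7, KLRD1 and GNLY were called higher, with median log2 ratios of 4.75, 2.72, 2.54 and 2.11, and FABP5, a fatty acid carrier, CTLA4, IL10 and CCR6 lower, at -2.83, -2.46, -2.24 and -0.62. Against 617 T cells with 2 or more TNFRSF4 UMIs (6 libraries), 241 were higher (3.78% of 6381) and 628 lower (9.84%). CCL5, GZMK, HOPX and SPINK2 were called higher there, at 5.39, 3.67, 2.49 and 2.22, and TNFRSF18, CTLA4, TIGIT and MAGEH1 lower, at -3.75, -2.83, -2.19 and -2.13. ICOS was called lower in KLRB1 T cells in both, at -0.44 and -0.78.

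Markers of other cells were summed in both kinds. The 6 NK and innate lymphoid markers (NCR1, KLRF1, TYROBP, FCER1G, KIT and IL1RL1, all with UMIs) gave 16.9 to 202 CPM in KLRB1 T cells and 9.68 to 177 in KLRB1-zero T cells, higher in the former in 8 of 8 libraries beside the killing and NK-receptor genes, and their part in those results was not tested. Where both kinds of cell also had to hold a TRAC UMI, GNLY and HOPX kept their call and CCL5 lost it, with median ratios of 0.82, 1.11 and 1.26. The 6 B-cell markers, with PAX5 at 0, gave 6.88 to 810 CPM against 11.1 to 792, higher in 1 of 8 libraries. The 8 myeloid markers, with MSR1 at 0, had a median of 0 CPM and a highest value of 4231 in library 1, where KLRB1-zero T cells had 5117. Epithelial markers were at most 70.2 CPM with CDH1 at 0, and the mast cell markers CPA3, HDC and MS4A2 were at 0.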

How the data were processed

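The deposited raw matrix holds UMI counts of 34628 genes in 57086 barcodes, for which the file headers name Cell Ranger 3.1.0. The submitters' processing notes also list Seurat 3.1 but not its use. Genome build and annotation were not given in the sources used here. Cells were those in the authors' deposited list of kept cells, each with at least 800 genes and 1502 UMIs. The deposited natural log values were not used. Gene symbols came from the file or a table of gene names (24506 of the gene IDs).

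The cells, the gene lists and the tests were chosen with earlier results of these data known. Counts were summed per library and kind of cell where both kinds had at least 20 cells, scaled to CPM, and compared as log2 ratios with a pseudocount of 10 CPM, for genes of at least 10 CPM on average. A gene was called where all libraries had the same sign. Since barcode numbers are tied to no label, libraries are unassigned, the planned tests between label groups were not made, and no p-value is given. The text names called genes of the lists, the 15 highest and 10 lowest called genes with a symbol, measured genes of the type 17, innate-like, gamma-delta and NK lists, and genes of the rule. Other genes named were chosen after their values were seen. 0 columns of other samples were present. No doublet caller was run. Some genes of the lists are not reported here by name. The scripts (Python 3.11.15, numpy 2.4.6, scipy 1.17.1, pandas 2.3.3) were tested on simulated data.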

Additional observations from a re-analysis of the deposited data

Results flagged for a closer look

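Over the 8 libraries, 51 genes named by rule were checked for 1 library whose log2 ratio of KLRB1 T cells over KLRB1-zero T cells stood far from the others (Dixon's 95% critical value of 0.526), and 3 genes had one. Chance sets apart about 1 in 20 such groups.

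CD4 in library 13 had a ratio of -3.21, next to -1.26 in the library nearest to it. The 53 KLRB1 T cells of library 13 gave 0 CD4 UMIs, which allows up to 25.3 CPM of CD4, against 82.3 CPM in its KLRB1-zero T cells. ICOS in library 13 had a ratio of -1.84, next to -0.69, from 42.2 CPM against 177. TGDS in library 2 had a ratio of 1.18, next to 0.67, from 22.8 CPM in its 50 KLRB1 T cells.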

How the results depend on the processing

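No paired analysis was possible because the labels give groups no shared replicate numbers and barcode numbers are tied to no sample. This concerns comparisons between label groups, since KLRB1 and KLRB1-zero T cells were compared within libraries throughout. Of 62 genes higher and 55 lower, leaving out 1 library at a time gave 75 to 111 higher and 72 to 110 lower, over 1.5 times as many without library 2 (96 and 100), library 8 (100 and 83), library 12 (107 and 110) or library 13 (111 and 101), and lower also without library 1 (99) or library 3 (88). Fewer libraries leave more genes of 1 sign by construction. For that reason libraries 1, 2 and 3 alone gave 807 and 801, libraries 8 to 13 alone 273 and 290, and the 6 libraries without 3 and 11 (added after the data were seen) 141 and 125. Cells with a CD4 UMI, which 3 libraries could supply, gave 785 and 807. A minimum of 50 CPM left 24 lower. KLRB1-zero T cells without the cuts gave 36 and 94, of which 21 and 36 were among the genes called before, and the cause was not tested. The median share moved between 11.2 and 13.3% as libraries were left out.

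Of 1326 other values of named genes over 26 settings, 1296 moved by less than the spread between libraries and 24 by more, and the other 6 were of called genes and changed sign. In genes not called, 53 values of 13 genes also had the other sign, ICOS and MAF among them. Against KLRB1-zero T cells without the cuts, ISG15 was -0.043 and TNFRSF1B -0.070. With a CD4 UMI, CD160 was -0.033, ISG15 -0.59, RRAD -0.13 and TNFRSF1B -0.036, and the cause was not tested. Of the 28 named genes called, 16 kept their call after thinning, 18 at matched depth, 17 with at least 2 KLRB1 UMIs and 19 with a TRAC UMI. A UMI count of 1 to 3 in 50 to 293 cells limits what low genes such as TOX2 can show.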
